A study of Arabidopsis thaliana with 8 samples.

Results

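Of the 24649 mRNA loci listed on chromosomes 1 to 5 of *Arabidopsis thaliana*, 11263 had enough small RNA in WT to be judged here. Only 3 of these 11263 lost small RNA by a wide margin in plants lacking XRN4. The margin was set on the deposited CPM, which are counts scaled by the authors to the library total and a further factor. A locus was taken when its mean in WT was at least 5 CPM and when the highest of the 4 libraries without XRN4 (*urt1-1 xrn4-3* and *xrn4-3*) stayed below 0.6 times the lowest of the 4 libraries with XRN4 (*urt1-1* and WT). The 3 loci are AT1G47389, an uncharacterized protein gene, AT2G06025, a gene of the acyl-CoA N-acyltransferase superfamily, and AT4G18110, a gene of the RING/U-box superfamily. The loci were thus chosen by the CPM values of all 8 libraries, and the difference between libraries without and with XRN4 is described below and was not tested for these loci.

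Small RNAs in plants are cut by Dicer-like proteins from double-stranded RNA and are loaded into Argonaute proteins, which silence matching mRNAs or direct DNA methylation. Uncapped mRNA fragments can be copied by RNA-dependent RNA polymerases into such double-stranded RNA. XRN4 is the main cytosolic 5′-3′ exoribonuclease of Arabidopsis and removes uncapped mRNAs, so loss of XRN4 is best known for gains of siRNA from mRNAs. URT1 is a terminal uridylyltransferase that adds uridines to the 3′ ends of deadenylated mRNAs. Short sequenced reads can also be plain fragments of mRNA, and the files give no read lengths by which these could be told from Dicer products.

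Small RNA was sequenced from plantlets of the Col-0 accession grown for 24 days in vitro, in 4 genotypes with 2 biological replicates each: the double mutant *urt1-1 xrn4-3*, the single mutants *xrn4-3* and *urt1-1*, and WT. Both mutations are T-DNA insertions, and every library without XRN4 carries the same *xrn4-3* allele, so that loss of XRN4 and anything else carried by this insertion line cannot be told apart. Per the methods of the study, biological replicates are plants of a genotype that were grown on separate occasions. Whole plantlets were used, and small RNA reads do not measure mRNA, so that neither tissue markers nor the level of the mutated mRNAs could be checked. Between 6045353 and 30064224 reads per library were counted on the listed loci, the lowest in an *urt1-1* library and the highest in an *urt1-1 xrn4-3* library. One library stood apart at the URT1 gene itself (AT2G45620): *xrn4-3* replicate 2 had 271 CPM there, against 5.92 to 15.7 CPM in the other 7 libraries. Leaving out a library can only widen the rule at loci with this much small RNA in WT, so that the 3 loci pass without this library too. The number of loci did depend on it, since 29 passed without *xrn4-3* replicate 2. At the 3 loci *xrn4-3* replicate 2 held 0.173, 16.8 and 25.5 CPM, beside 0, 17.8 and 22.3 CPM in replicate 1.

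The 3 loci lie on different chromosomes, and their small RNA came from spans of very different structure. AT1G47389 (chr1:17378652-17379374, plus strand) spans 723 bases of a single exon, exactly the coding part of the gene. AT2G06025 (chr2:2348136-2352157, plus strand) spans 4022 bases with up to 11 exons in 7 RefSeq models, the coding part beginning 2096 bases into the span. AT4G18110 (chr4:10037077-10037718, minus strand) covers 642 bases of a single exon. Proteins of the acyl-CoA N-acyltransferase superfamily transfer an acyl group from coenzyme A to an amine, and RING and U-box domains are best known from ubiquitin ligases. Positions are those of the deposited TAIR10 table, and bases were read from the RefSeq sequence of TAIR10.1.

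A mature small RNA is so short that reads from a nearly identical copy elsewhere could be counted on these loci, and the following stretches show the longest match found elsewhere for 2 of them. The end of the coding part of AT1G47389 (chr1:17379206-17379374, plus strand) is followed by its longest match in the genome (chr5:507601-507771, plus strand), which lies in no listed locus. Capitals mark the bases that the 2 sequences do not share in their alignment, 21 in the gene and 23 in the copy.
AT1G47389 coding end: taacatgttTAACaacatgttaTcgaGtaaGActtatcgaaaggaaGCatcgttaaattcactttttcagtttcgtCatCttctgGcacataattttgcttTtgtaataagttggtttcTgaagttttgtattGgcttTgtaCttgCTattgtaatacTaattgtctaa
chromosome 5 copy: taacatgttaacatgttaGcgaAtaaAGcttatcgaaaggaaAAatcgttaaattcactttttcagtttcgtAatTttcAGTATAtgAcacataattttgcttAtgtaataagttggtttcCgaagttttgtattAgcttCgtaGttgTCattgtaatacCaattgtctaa

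AT4G18110 had 1 longer match outside itself (chr2:9904059-9904116), a stretch of 58 bases that was 82.8% identical to chr4:10037445-10037502 on the minus strand. Windows of 21 nt with closer, shorter matches elsewhere are counted below. Both stretches are printed in the sense of the gene, and capitals mark the 10 bases that differ in each.
AT4G18110 stretch: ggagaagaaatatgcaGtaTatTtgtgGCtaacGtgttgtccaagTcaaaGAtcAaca
chromosome 2 match: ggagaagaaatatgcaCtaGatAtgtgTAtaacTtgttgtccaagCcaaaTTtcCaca

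AT2G06025 differs from the other 2 in having many copies of parts of itself, given below with the counts. It also holds the longest perfect palindrome among the 3 loci, 26 bases in an intron, ahead of the coding part, of the model that spans the locus (chr2:2349641-2349666, plus strand). Capitals mark the first arm, to which the second arm is complementary.
AT2G06025 palindrome: TTTTTAAAAATATatatttttaaaaa

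AT1G47389 had almost no small RNA without XRN4. The *urt1-1 xrn4-3* libraries held 0.0766 and 0.273 CPM (1 and 9 reads) and the *xrn4-3* libraries 0 and 0.173 CPM (0 and 2 reads), against 6.50 and 3.84 CPM (45 and 21 reads) in *urt1-1* and 6.89 and 7.50 CPM (93 and 72 reads) in WT. Even the lowest library with XRN4, an *urt1-1* library, was far above the highest library without XRN4. The mean was 0.131 ± 0.118 CPM without XRN4 and 6.18 ± 1.62 CPM with XRN4 (SD, n = 4 each), that is 47.4-fold lower without XRN4. The fitted log2 difference, -5.30 (SE 0.64) as the mean of both XRN4 contrasts, was -7.05 without *xrn4-3* replicate 2, which held both reads of that genotype, and between -5.92 and -4.94 without any other library. A total of 3 reads would have given between 0.0910 and 0.548 CPM, depending on the library, and 3 of the 4 libraries without XRN4 were below this limit. The exception was *urt1-1 xrn4-3* replicate 2, the deepest library, with its 9 reads.

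The direction of this difference was fixed by the choice of the locus, and the intervals that follow describe only how well its size was counted. The 2 reads pooled over *xrn4-3* stood for 1.43% of the rate in WT (165 reads), with an exact 95% interval of 0.172% to 5.27%. The 10 reads pooled over *urt1-1 xrn4-3* stood for 4.08% of the rate in *urt1-1* (66 reads), with an exact 95% interval of 1.87% to 7.99%. These intervals cover counting error only, and they take reads as independent molecules, which reads amplified by PCR are not. The spread between libraries is left out, and the choice of the locus favoured a large loss.

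AT2G06025 kept a larger share of its small RNA. The *urt1-1 xrn4-3* libraries had 16.5 and 8.07 CPM and the *xrn4-3* libraries 17.8 and 16.8 CPM, against 64.9 and 41.3 CPM in *urt1-1* and 87.7 and 56.7 CPM in WT. The groups were far from overlapping, *urt1-1 xrn4-3* replicate 2 being lowest and WT replicate 1 highest. The mean was 14.8 ± 4.50 CPM without XRN4 and 62.6 ± 19.4 CPM with XRN4 (SD, n = 4 each), 4.24-fold lower without XRN4.

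AT4G18110 showed the smallest difference of the 3. It had 26.7 and 12.4 CPM in *urt1-1 xrn4-3* and 22.3 and 25.5 CPM in *xrn4-3*, against 44.6 and 45.3 CPM in *urt1-1* and 60.0 and 46.6 CPM in WT. The *urt1-1* libraries were close to the lower WT library, and *urt1-1 xrn4-3* replicate 2 was the lowest of all. The mean was 21.7 ± 6.50 CPM without XRN4 and 49.1 ± 7.27 CPM with XRN4 (SD, n = 4 each), 2.26-fold lower without XRN4.

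**Figure D1:**
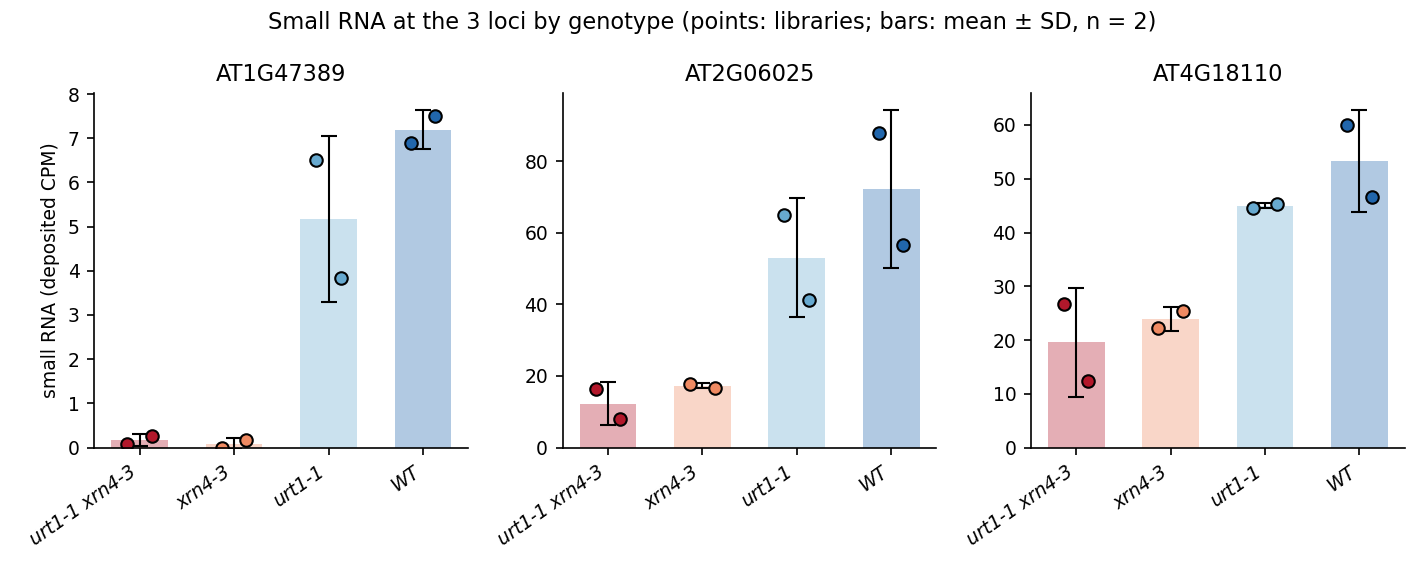
Small RNA at AT1G47389, AT2G06025 and AT4G18110 in deposited CPM (vertical axes, each with its own scale) by genotype; points are libraries, bars the mean and lines the SD (n = 2). At each locus the 4 libraries of *urt1-1 xrn4-3* and *xrn4-3* lie below the 4 libraries of *urt1-1* and WT, and at AT1G47389 they lie between 0 and 0.273 CPM.

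Per length, AT4G18110 had the highest mean level, 33.9 CPM per kb without XRN4 and 76.5 CPM per kb with XRN4. AT2G06025 followed with 3.67 and 15.6 CPM per kb, and AT1G47389 was lowest with 0.181 and 8.55 CPM per kb, again without and with XRN4. The share of small RNA left without XRN4 thus had no common size, being 2.11% at AT1G47389, 23.6% at AT2G06025 and 44.3% at AT4G18110.

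The fitted losses in plants without and with URT1 were close at AT2G06025 and AT4G18110, but the rule asked for a loss in both. Their SE leave room for a sizeable difference. On the log2 scale of the edgeR model, AT2G06025 differed by -2.12 (SE 0.52) between *urt1-1 xrn4-3* and *urt1-1* and by -2.06 (SE 0.52) between *xrn4-3* and WT. The corresponding log2 fold changes of AT4G18110 were -1.21 (SE 0.49) and -1.16 (SE 0.49). Those of AT1G47389 were -4.59 (SE 0.64) and -6.02 (SE 1.11), the second resting on the 2 reads of *xrn4-3*. Over all 24722 loci in the model, 227 were called lowered between *urt1-1 xrn4-3* and *urt1-1* (0.918%) and 64 between *xrn4-3* and WT (0.259%). These 2 contrasts chose the 3 loci, and the shares are given as background.

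**Figure D2:**
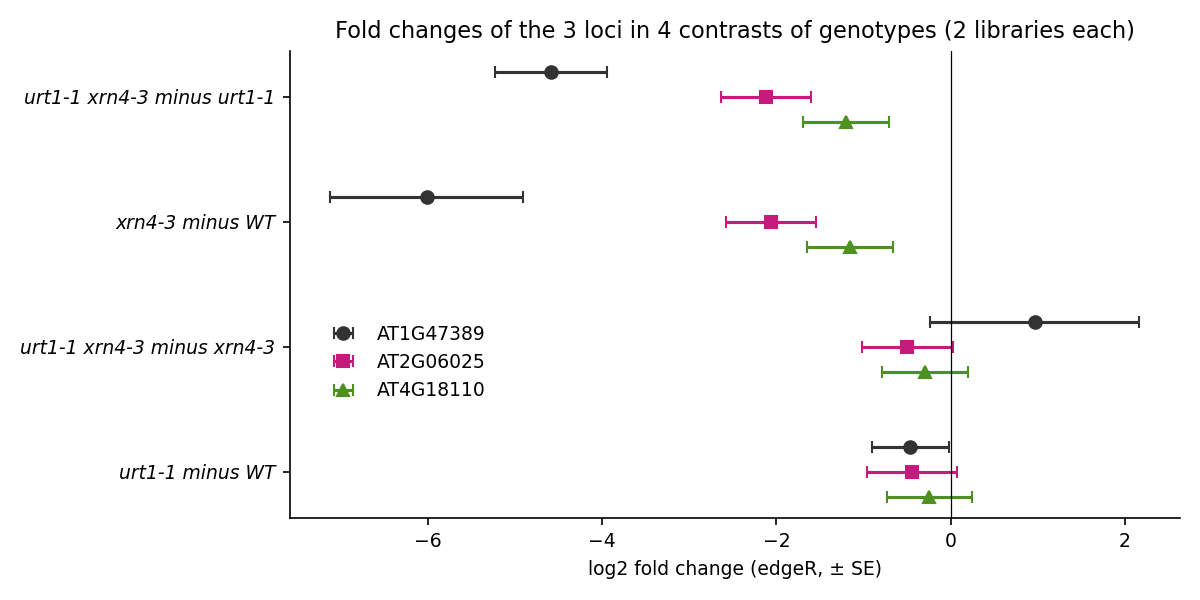
Log2 fold changes with SE from the edgeR model (horizontal axis) for the 3 loci in 4 contrasts between genotypes of 2 libraries each. In the 2 upper contrasts, which chose the loci, the values run from -6.02 to -1.16, and in the 2 lower contrasts, which compare plants without and with URT1, from -0.50 to 0.97.

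The contrasts of URT1 were not set by the rule, but they were not free of it either. The rule took the lowest of the *urt1-1* and WT libraries and the highest of the *urt1-1 xrn4-3* and *xrn4-3* libraries. Loci with a strong fall from WT to *urt1-1*, or a strong rise from *xrn4-3* to *urt1-1 xrn4-3*, were thus less likely to pass. The rule set no such limit on changes in the opposite directions. The estimates below are therefore given as a description, their intervals take no account of the choice, and the lack of a call at the 3 loci is not evidence that URT1 had no effect there. None of the 3 was called between *urt1-1* and WT by the edgeR likelihood ratio test, in which 7 of the 24722 loci were called (0.0283%). The log2 fold changes were -0.46 (SE 0.45) for AT1G47389, -0.44 (SE 0.51) for AT2G06025 and -0.24 (SE 0.49) for AT4G18110. The 95% intervals were wide, from -1.34 to 0.41 for AT1G47389, from -1.45 to 0.57 for AT2G06025 and from -1.21 to 0.72 for AT4G18110. The quasi-likelihood test called none of the 24722 loci in this contrast, of which 458 had an unadjusted p under 0.05, while 518 had one by the likelihood ratio test.

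None of the 3 was called between *urt1-1 xrn4-3* and *xrn4-3* either, where 504 loci were called over the whole table (2.04%) and 42 by the quasi-likelihood test (0.17%). AT1G47389 had a log2 fold change of 0.97 (SE 1.20), with a 95% interval from -1.38 to 3.32 that reflects its 10 and 2 reads. AT2G06025 had -0.50 (SE 0.52) and AT4G18110 had -0.29 (SE 0.49). The 95% intervals of these 2 ran from -1.52 to 0.52 and from -1.26 to 0.67. A fall of 2-fold lay within both and a rise of 2-fold within neither. The rule itself worked against a rise in this contrast, so that no conclusion is drawn from its absence. Without *urt1-1 xrn4-3* replicate 2, the estimates were -0.35 for AT1G47389 and 0.16 for AT4G18110, the opposite sign for each, and remained uncalled.

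The difference between the XRN4 effect without URT1 and the XRN4 effect with URT1 was estimated as an interaction, in which 30 of all loci were called (0.121%) and none of the 3. The rule asked for a loss in both backgrounds, which also selected against loci whose loss depended on URT1. It was 1.43 (SE 1.28) for AT1G47389, -0.06 (SE 0.73) for AT2G06025 and -0.05 (SE 0.70) for AT4G18110 on the log2 scale. The 95% intervals ran from -1.08 to 3.94, from -1.49 to 1.38 and from -1.42 to 1.32, so that 2 libraries per genotype left room for a sizeable effect in either direction. The sign for AT2G06025 and AT4G18110 changed when single libraries were left out. The quasi-likelihood test called none of the 24722 loci, of which 1151 had an unadjusted p under 0.05.

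A loss by this margin was rare beside gains by the same margin. Of the 11263 loci with a mean WT level of at least 5 CPM, 627 (5.57%) had all 4 libraries without XRN4 below all 4 with XRN4, yet only 3 (0.0266%) passed the margin of 0.6. The mirror of the rule, with the lowest library without XRN4 above the highest with XRN4 by the same margin, was met by 265 loci (2.35%). With no margin, 999 loci (8.87%) had all 4 libraries without XRN4 above all 4 with XRN4, beside the 627 in the opposite order. The contrast between losses and gains thus depended on the margin. The ratio of the highest library without XRN4 to the lowest with XRN4 had a median of 1.66. A highest over a lowest value is raised by spread alone, so that this median is not a typical gain. The median log2 fold change over all loci tested was 0.03 in the mean of both XRN4 contrasts. The ratio was 0.0711 at AT1G47389, 0.431 at AT2G06025 and 0.599 at AT4G18110, the last lying just inside the threshold.

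The loci just outside were AT2G29040 with a ratio of 0.608 and AT3G25130 with 0.625. AT2G29040 had 3.60 and 3.46 CPM in *urt1-1 xrn4-3* and 2.77 and 2.50 CPM in *xrn4-3*, against 5.92 and 6.03 CPM in *urt1-1* and 6.08 and 6.25 CPM in WT. AT3G25130 had 18.2 and 12.2 CPM in *urt1-1 xrn4-3* and 8.83 and 18.4 CPM in *xrn4-3*, against 37.1 and 29.4 CPM in *urt1-1* and 33.8 and 51.4 CPM in WT. Both had groups that did not overlap, and the mean of AT3G25130 was 2.63-fold lower without XRN4, more than the 2.26-fold of AT4G18110. A margin of 0.7 would have taken 17 loci.

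**Figure D3:**
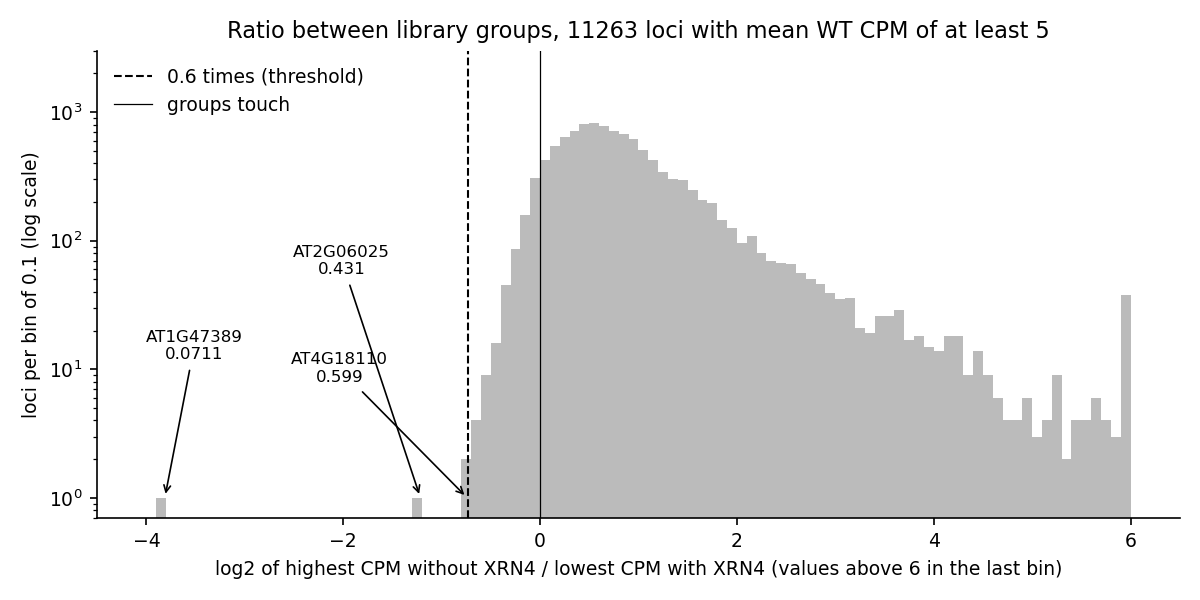
Distribution over 11263 loci of the log2 ratio of the highest CPM without XRN4 to the lowest CPM with XRN4 (horizontal axis), with the number of loci per bin on a log axis. AT1G47389 (0.0711) and AT2G06025 (0.431) stand clear of the rest, whereas AT4G18110 (0.599) lies at the edge of the distribution beside the dashed threshold of 0.6.

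Copies elsewhere in the genome matter here because reads were kept when they matched up to 50 places. At AT2G06025, 617 of 4002 windows of 21 nt (15.4%) had a second exact match in the genome, a larger share than at 91.2% of all loci, and one window had 44 matches. These repeats fell into 26 blocks, 22 of which lay ahead of the coding part, within the first 1686 bases. With 1 mismatch allowed, as in the mapping, 1105 windows (27.6%) had a second match. At AT1G47389 the exact share was 1.42% (10 of 703 windows) and the share with 1 mismatch 7.54%. AT4G18110 had no repeated window among 622, a property of 9.42% of all loci, and 3.22% with 1 mismatch. The median locus had 0.894% repeated windows.

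**Figure D4:**
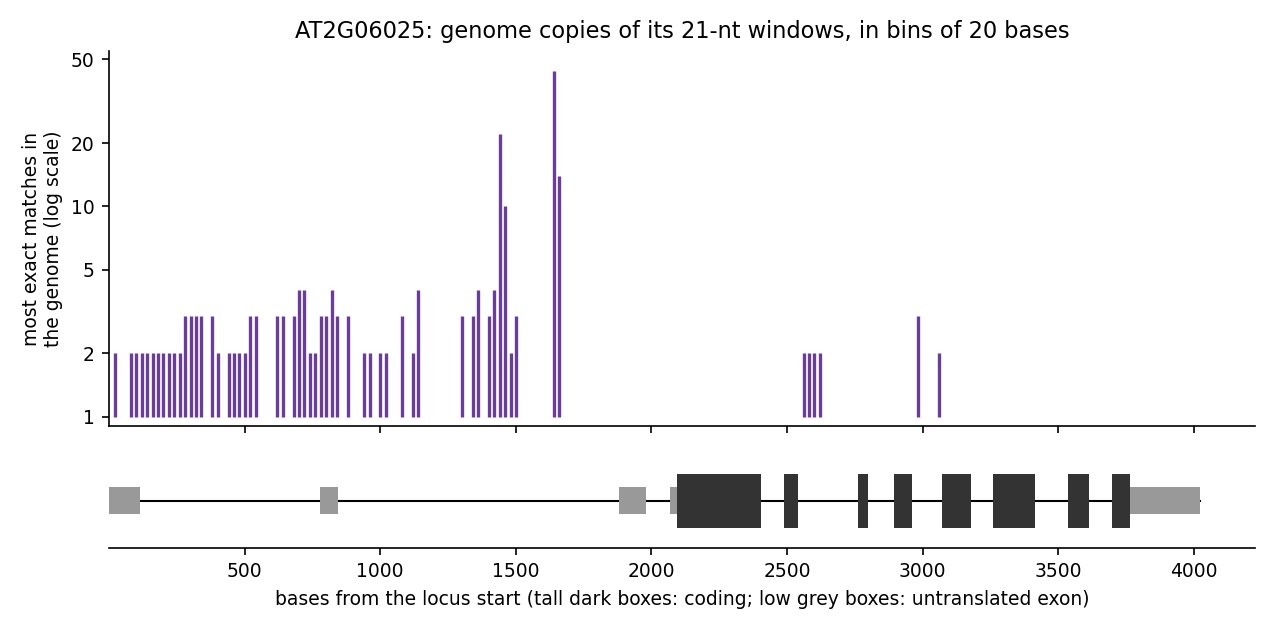
Number of exact genome matches of the 21-nt windows of AT2G06025 (vertical axis, log scale, the most in each bin of 20 bases) against the distance from the start of the locus in bases, above a map of its exons. Repeated windows gather ahead of the coding boxes, which begin at base 2096, and reach 44 matches.

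Calls at listed loci with copies of AT2G06025 are given beside the shares over all loci. Between *xrn4-3* and WT, 0.259% of all loci were called lowered and 4.19% raised. Between *urt1-1 xrn4-3* and *urt1-1* these shares were 0.918% and 8.35%. At such shares lowered, sets of 15 or 34 loci can hold few or no calls without differing from other loci. A total of 15 listed loci shared at least 1 window of 21 nt with AT2G06025. None of them was called lowered or raised in either contrast of plants without and with XRN4. Counting also listed loci that held a less exact match, there were 34 loci. None of these was called between *xrn4-3* and WT, and 1, AT4G01335, was called lowered between *urt1-1 xrn4-3* and *urt1-1*, with a log2 fold change of -1.68 (SE 0.55, edgeR adjusted p = 0.0313) that the quasi-likelihood test did not call (adjusted p = 0.0951) and that was lost without either *urt1-1 xrn4-3* library or either *urt1-1* library (-1.92 to -1.40). The median over the 15 loci of the mean level without XRN4 divided by that with XRN4 was 1.04. AT2G31580 shared 309 windows, by far the most. It held 3.30 and 10.8 CPM in *urt1-1 xrn4-3* and 5.04 and 9.15 CPM in *xrn4-3*, against 3.76 and 8.04 CPM in *urt1-1* and 3.71 and 6.25 CPM in WT. The groups of AT2G31580 overlapped, and its mean was 7.07 CPM without XRN4 and 5.44 CPM with XRN4. Which windows the reads of AT2G06025 came from cannot be read from counts per locus.

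Calls at the nearest listed loci can say little, since few of all loci were called lowered. The shares were 0.918% between *urt1-1 xrn4-3* and *urt1-1*, 0.259% between *xrn4-3* and WT, and 1.62% (400 loci) in the mean of both contrasts. The 12 nearest listed loci, 2 on each side of each of the 3, were examined. The edgeR likelihood ratio test called none of them lowered in any of these contrasts. AT1G47390 begins only 169 bases beyond AT1G47389 on the same strand. It had 1.53 and 0.697 CPM in *urt1-1 xrn4-3* and 1.64 and 1.38 CPM in *xrn4-3*, against 1.59 and 0.913 CPM in *urt1-1* and 1.93 and 1.35 CPM in WT, with full overlap of the groups. AT2G06040 overlaps the end of AT2G06025 by 4 bases on the opposite strand and averaged 4.61 CPM without XRN4 and 6.76 CPM with XRN4. AT4G18130, 4.418 kb beyond AT4G18110, had all 4 libraries without XRN4 below all 4 with XRN4, as did 5.57% of the loci of at least 5 CPM in WT. It had 13.8 and 15.3 CPM in *urt1-1 xrn4-3* and 14.8 and 9.67 CPM in *xrn4-3*, against 16.3 and 21.2 CPM in *urt1-1* and 16.9 and 20.6 CPM in WT. AT2G06020, 1.928 kb ahead of AT2G06025, had the lowest log2 fold change of the 12 in the mean of both contrasts, -0.72 (SE 0.35, edgeR adjusted p = 0.175, unadjusted p = 0.0387). In this mean 8 of the 12 were below 0, where the median over all loci was 0.03. AT4G18120, 407 bases beyond AT4G18110, averaged 19.7 CPM without XRN4 and 14.6 CPM with XRN4.

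One neighbour moved the other way. AT1G47400, 6.342 kb beyond AT1G47389, had 4.60 and 1.18 CPM in *urt1-1 xrn4-3* and 0.126 and 0.691 CPM in *xrn4-3*, against 0 and 0.183 CPM in *urt1-1* and 0.148 and 0 CPM in WT. It was the only one of the 12 called raised, with a log2 fold change of 4.95 (SE 1.61, edgeR adjusted p = 0.00103) between *urt1-1 xrn4-3* and *urt1-1*. Without *urt1-1* replicate 1 the log2 fold change was 3.89 and was not called (edgeR adjusted p = 0.121). Its change between *xrn4-3* and WT was 2.24 (SE 1.36) with an edgeR adjusted p of 0.436. Between *urt1-1 xrn4-3* and *urt1-1*, 2065 loci (8.35%) were called raised over the whole table. All 4 libraries with XRN4 were below the level of 3 reads at AT1G47400, and the fitted fold depends on how such low counts are treated.

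**Figure D5:**
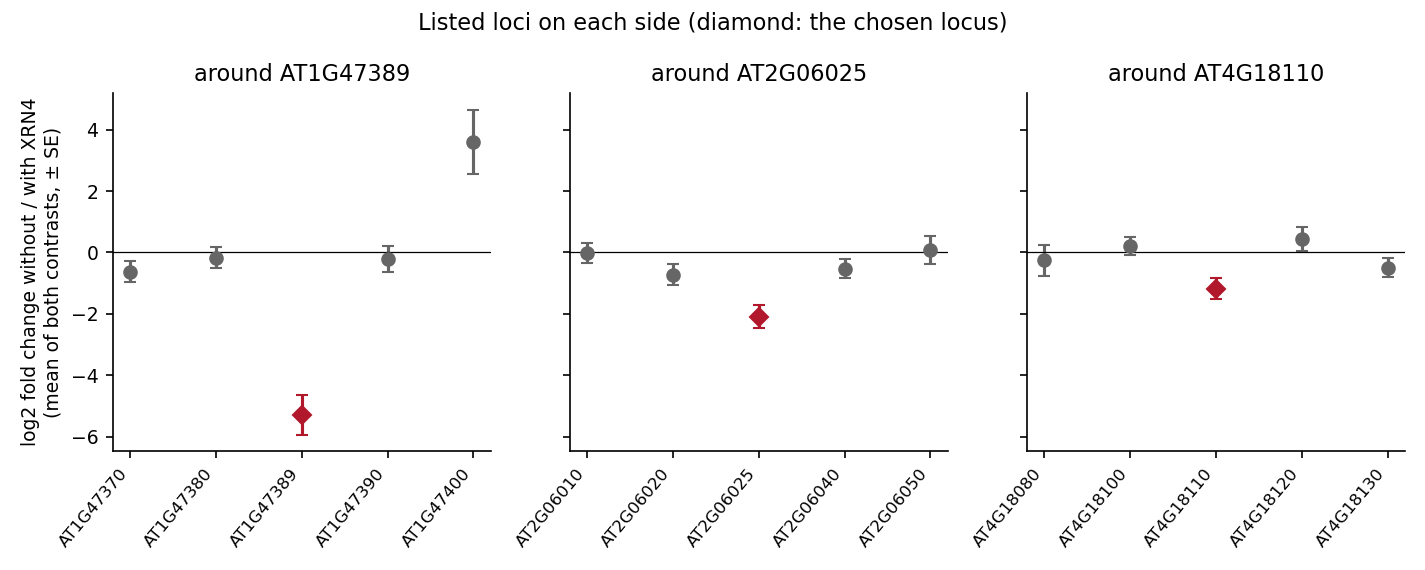
Log2 fold change without over with XRN4 (vertical axis, mean of both contrasts with SE, edgeR model) for each chosen locus (diamond) and the 2 listed loci on each side (circles), in chromosome order. The chosen loci lie at -5.30, -2.09 and -1.18, and the neighbours between -0.72 and 3.60, the highest being AT1G47400.

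Beyond the loss, the 3 loci shared little that the rule had not used. AT1G47389 and AT4G18110 are short, longer than 7.13% and 5.53% of the loci, and have a single exon, as do 16.6% of the loci. AT2G06025 is long, longer than 89.3% of the loci, against a median of 2031 bases. GC content was 39.8% at AT1G47389, 34.3% at AT2G06025 and 40.8% at AT4G18110, where the median of all loci was 39.4%. AT2G06025 lies in a gene-poor region, with 78 listed loci within 500 kb on each side. AT1G47389 had 171 such loci, below the lower quartile of 216, and only 9.71% of all loci had fewer. AT4G18110 had 243, where the median was 243. AT1G47389 lies 2.97 Mb from XRN4 on chromosome 1, so that sequence linked to the insertion and the loss of XRN4 cannot be told apart there. No locus overlapped an annotated miRNA gene.

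Small RNA at genes of silencing and decay was compared in the same fit. In the contrasts of URT1 and in the interaction, none of the 17 genes of RNA-directed DNA methylation was called. The same held for the 10 genes of post-transcriptional silencing. Over all loci 0.0283%, 2.04% and 0.121% were called, so that lists of this size can hold none without differing from other loci. The median log2 fold changes of these 2 lists between *urt1-1 xrn4-3* and *xrn4-3* were 0.13 and 0.06, against -0.01 over all loci. Of the 15 genes of mRNA decay, PAT1 (AT1G79090), an activator of decapping, was called raised in this contrast, with a log2 fold change of 1.44 (SE 0.41, edgeR adjusted p = 0.0304); the quasi-likelihood test did not call it (adjusted p = 0.145), and the call was lost whichever library was left out. URT1 was called lowered, with -4.24 (SE 0.87, edgeR adjusted p = 0.00339), and this value rests on the 271 CPM of *xrn4-3* replicate 2, without which it was -0.90 and not called (edgeR adjusted p = 0.389). URT1 was likewise called raised between *xrn4-3* and WT, by 3.46 (SE 0.87, edgeR adjusted p = 0.0110), and in the mean of both XRN4 contrasts, by 1.79 (SE 0.62, edgeR adjusted p = 0.0436), but the log2 fold changes were 0.11 and 0.11 without *xrn4-3* replicate 2, and neither was called. The first call was also lost without either WT library, and the second without either WT library, either *urt1-1* library or *urt1-1 xrn4-3* replicate 1. PAT1 was also raised between *urt1-1 xrn4-3* and *urt1-1*, by 1.66 (SE 0.42, edgeR adjusted p = 0.00215), a call that was lost without either *urt1-1* library (1.78 and 1.56 on the log2 scale, edgeR adjusted p = 0.0704 and 0.104). In the mean of both XRN4 contrasts, where 2745 of all loci were raised (11.1%), PAT1 was raised by 0.99 (SE 0.30, edgeR adjusted p = 0.0109), a call that was lost without either *urt1-1* library, either *urt1-1 xrn4-3* library or WT replicate 2 (0.91 to 1.05). In the same mean, the DNA methyltransferase gene DRM2 (AT5G14620) had a log2 fold change of 0.82 (SE 0.30, edgeR adjusted p = 0.0440), which the quasi-likelihood test did not call and which was lost when either WT library, either *urt1-1 xrn4-3* library, *urt1-1* replicate 2 or *xrn4-3* replicate 2 was left out (0.64 to 0.87). These are levels of small RNA at the genes and not of their mRNA.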

How the data were processed

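Small RNA of 18 to 30 nt was sequenced by the authors. After trimming, reads between 14 and 30 nt long were aligned by Bowtie 1.0.0 to the TAIR10 genome (at most 1 mismatch). Per-mRNA totals came from bedtools 2.17.0 and rest on the top-scoring alignments of reads that fit at most 50 places. Counting used no strand, so reads of overlapping loci cannot be told apart, and a read with several best matches could count at each. The deposited table holds raw counts for 24859 loci and CPM columns, a signal that the authors scaled by library total and a factor close to TMM, so that these columns do not sum to the same total in each library. The locus rule and all CPM values use the deposited columns.

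Counts were fitted with edgeR 4.0.16 in R 4.3.3 (TMM, filterByExpr with a count minimum of 10, 1 coefficient per genotype, 8 libraries). The main test was the likelihood ratio test (p adjusted by Benjamini-Hochberg over 24722 loci, threshold 0.05), since the study names edgeR's log-linear model. The quasi-likelihood test stood beside it. SE come from the model. The code was tested on simulated data. Members and gene lists were chosen with earlier results of these data known. Named were all members, URT1, XRN4, the 2 loci just outside the threshold and list genes called. Neighbours, AT2G31580 and AT4G01335 were named, and alternatives for AT1G47400, AT4G01335 and the list genes added, after their values were seen.

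Windows of 21 nt were matched exactly to TAIR10.1 (RefSeq) on both strands, and longer copies were found with blastn 2.17.0. Identical gene spans at 8613 of 24441 loci (35.2%), in similar shares on each chromosome, showed that the positions of both builds match. Products came from RefSeq by locus code. Alternatives were DESeq2 1.42.0, RLE factors, library size only, no filter, at least 10 reads in every library, each library left out, and a replicate block. Python 3.11.15, numpy 2.4.6, pandas 2.3.3, scipy 1.17.1 and matplotlib 3.10.9 were used.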

Additional observations from a re-analysis of the deposited data

How the results depend on the processing

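None of the 3 loci was called in any URT1 contrast or in the interaction under any alternative. The rule worked against a fall in *urt1-1*, a rise in *urt1-1 xrn4-3* over *xrn4-3* and a loss in a single background. The lack of calls is thus no sign of stability. Counts over all loci moved more. Under the quasi-likelihood test, 0 loci were raised and 0 lowered in *urt1-1*, 41 raised and 1 lowered in *urt1-1 xrn4-3* against *xrn4-3*, and 0 and 0 in the interaction, against 6 and 1, 427 and 77, and 22 and 8 by the likelihood ratio test. DESeq2 called 1 raised and 0 lowered in *urt1-1* and 5 lowered in the interaction. With library size only, 0 were lowered in *urt1-1* and 188 raised and 81 lowered in *urt1-1 xrn4-3* against *xrn4-3*. With at least 10 reads in every library, 13 were raised and 3 lowered in the interaction. The replicate numbers are shared by the labels, but 2 pairs per contrast cannot show whether a number marks a shared occasion. Same-numbered deviations over all loci correlated positively in every pair of genotypes (0.0359 to 0.356). The main fit held no replicate term. The replicate block gave 2 lowered in *urt1-1*, 150 lowered in *urt1-1 xrn4-3* against *xrn4-3*, and 41 raised and 15 lowered in the interaction, and it called none of the 3 loci.

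Leaving out each library in turn, raised loci ranged from 0 to 10 and lowered loci from 0 to 54 in *urt1-1*, from 132 to 661 and from 22 to 399 in *urt1-1 xrn4-3* against *xrn4-3*, and from 9 to 81 and from 2 to 93 in the interaction. The extremes of 661, 399, 81 and 93 came without *xrn4-3* replicate 2, and that of 54 without WT replicate 2. The cause was not tested.

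The rule itself gave 2 loci without AT4G18110 for CPM scaled by library size only or a margin of 0.5, and 2 without AT1G47389 for a WT minimum of 10 CPM. It gave 17 loci for a margin of 0.7, 6 for a WT minimum of 2 CPM (adding AT3G28280, AT4G01140 and AT4G33585) and 265 for the mirror. Leaving out a library gave 5 to 78 loci, with 78 without *xrn4-3* replicate 1 and 29 without *xrn4-3* replicate 2. The 3 loci were always among them, by construction. The median log2 fold change of the 3 was -2.09, but -1.61 with at least 10 reads in every library, which removed AT1G47389, and it ranged from -2.49 to -1.88 without single libraries.

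Signs changed, with no call, in these cases. Without *urt1-1 xrn4-3* replicate 2, *urt1-1 xrn4-3* minus *xrn4-3* was -0.35 at AT1G47389 and 0.16 at AT4G18110, and the interaction 0.38 at AT2G06025 and 0.41 at AT4G18110. The interaction at AT2G06025 was 0.31 without *urt1-1* replicate 1 and 0.23 without WT replicate 2. At AT4G18110 it was 0.12 without WT replicate 2 and 0.05 without *xrn4-3* replicate 2. Over the libraries left out, *urt1-1 xrn4-3* minus *xrn4-3* ranged from -0.35 to 4.48 at AT1G47389 and from -0.96 to 0.16 at AT4G18110, and the interaction from -0.69 to 0.38 at AT2G06025 and from -0.72 to 0.41 at AT4G18110. The depth of 6045353 to 30064224 reads limits AT1G47389 most, where libraries without XRN4 held 0 to 9 reads.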
